A study of Mus musculus with 18 samples.

Results

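Glutathione S-transferases and UDP-glucuronosyltransferases were followed in mouse liver as 46 genes of 32285 in the count table. They were taken by symbol, pseudogenes left out. The classes Gsta, Gstk, Gstm, Gsto, Gstp, Gstt and Gstz and the membrane-bound Mgst genes gave 25 transferases of glutathione. Ugt1a, Ugt2a, Ugt2b and Ugt3a gave 21 genes, called glucuronosyltransferases here. Of these, Ugt3a1 and Ugt3a2 belong by symbol only, as their enzymes use other sugars than glucuronate. Liver gave 18 libraries in 3 groups of 6, all labelled wild-type and of strain B6D2F1. Space pups were 10-week-old offspring of germline stem (GS) cells, cultured spermatogonial stem cells of DBA/2 background, which the labels say were stored frozen aboard the ISS, the orbiting space station, for 6 months. Ground pups were offspring of the same age from GS cells frozen on Earth for an equal time. In both, thawed cells were transplanted into testes of sterile W recipients, which were then mated with C57BL/6 females. BDF1 mice were naturally bred controls whose age the labels do not give, so neither freezing, culture nor transplantation lay behind them, and these differences from the pups cannot be told apart. The study's text can be read as naming fewer wild-type mice than the labels list BDF1 libraries, so whether each of the 6 is a mouse of its own is uncertain, and n counts libraries. Per the study's methods the GS line was founded from mice with an EGFP transgene, and all pups descend from that line.

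Conjugation is the second phase of detoxification in hepatocytes. Glutathione S-transferases join the tripeptide glutathione to electrophiles such as lipid peroxidation products, and the product is trimmed to a mercapturate for excretion. UDP-glucuronosyltransferases add glucuronate from UDP-glucuronate to bilirubin, steroids, bile acids and drugs, which are then exported to bile or blood. The Ugt1a genes share their last exons and differ in the first exon, each with a promoter of its own, so 1 locus yields a set of enzymes with different acceptor pockets. Several of these enzymes are known to differ between livers of male and female mice, and the pi class is known as male-predominant.

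Libraries held 15407450 to 20562351 counts. Levels are given as CPM, counts per 1000000 of the library size scaled by TMM factors, and 3 counts, the most that a count of 0 allows, correspond to 0.134 to 0.234 CPM. Replicates 1 to 3 and 4 to 6 were kept apart throughout: in every group the first 3 had 1822 to 2482 counts of Y-linked genes and the last 3 had 12218 to 21557 counts of Xist, and the study used both sexes while the labels name none. Several libraries stood apart. Alb took 17.6% to 24.1% of counts in the 6 pup libraries numbered 4 to 6 against at most 8.03% in the other 12. Space replicate 4 and Ground replicates 5 and 6 were high in Serpina6, at up to 3.43% of counts, and Space replicate 6 and BDF1 replicate 3 held sperm transcripts (54.2 and 5.54 summed CPM of 8 haploid germ cell genes, at most 0.645 elsewhere). The 8 hepatocyte markers were above 0 in every group, and the 8 exocrine pancreas markers summed to at most 3.95 CPM. Fewer cells of a type and less RNA per cell cannot be told apart in whole tissue.

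Of the 46 genes, 39 passed the filter on low counts. They were 22 glutathione transferases and 17 of the genes called glucuronosyltransferases, Ugt3a1 and Ugt3a2 among them. The other 7 were Gstt4, Gsto2, Mgst2, Ugt1a2, Ugt1a8, Ugt2a1 and Ugt2a2, of which the last 2 had no count in any library. Of the 22 counts of Gstt4, 18 came from Space replicate 6, a library with sperm transcripts as described above. To rank different genes by level, CPM was divided by kilobases of annotated exon, whereas sums and shares over several genes are of counts without that correction and weigh long genes more. On that scale the highest means were those of Mgst1, the abundant membrane-bound transferase of the endoplasmic reticulum and mitochondria, or of the mu class gene Gstm1, and which of them led varied. Mgst1 was above Gstm1 in Space replicates 1 to 3 (1546 and 1319 CPM per kb) and in both Ground sets, while Gstm1 was above Mgst1 in Space replicates 4 to 6 (1143 and 996) and in both BDF1 sets. The pi class gene Gstp1 stood at 809 to 954 CPM per kb in the 3 groups of replicates 1 to 3 but at 92.3 to 138 in replicates 4 to 6, below Gsta3 at 197 to 291. Among glucuronosyltransferases, Ugt2b1 had the highest mean in pup replicates 1 to 3 (374 in Space and 480.0 CPM per kb in Ground), Ugt2b5 in BDF1 replicates 1 to 3 (304) and Ugt2b36 in replicates 4 to 6 of every group (237 to 302). Ugt1a1, the bilirubin enzyme, stood at 63.1 CPM per kb over all libraries, a value that depends on how reads in the exons shared within its locus were counted. All 46 genes together took 0.576% to 1.41% of a library's counts.

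The widest contrast within the family was between replicates 4 to 6 and 1 to 3, averaged over the 3 groups. Of the 39 genes tested, 28 passed an adjusted p of 0.05 (edgeR quasi-likelihood F-test, Benjamini-Hochberg over 13356 genes), 16 higher and 12 lower in replicates 4 to 6, beside 38% of all genes called. The median log2 difference of the 39 was 0.02, against 0.01 over all genes. Scaled by total counts instead 27 genes were called, 9 higher and 18 lower, and the median of all genes moved by -0.25. The 38% is of the fit with TMM factors and cannot be set beside these 27 calls. In that TMM fit 10 glutathione transferases were higher and 5 lower, and 6 glucuronosyltransferases were higher and 7 lower. Of the 28 calls, 20 were kept in every alternative run and 8 (Gstt1, Gstm7, Gstz1, Gsto1, Mgst3, Ugt3a2, Gsta2 and Ugt1a10) were lost in at least 1.

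**Figure D1:**
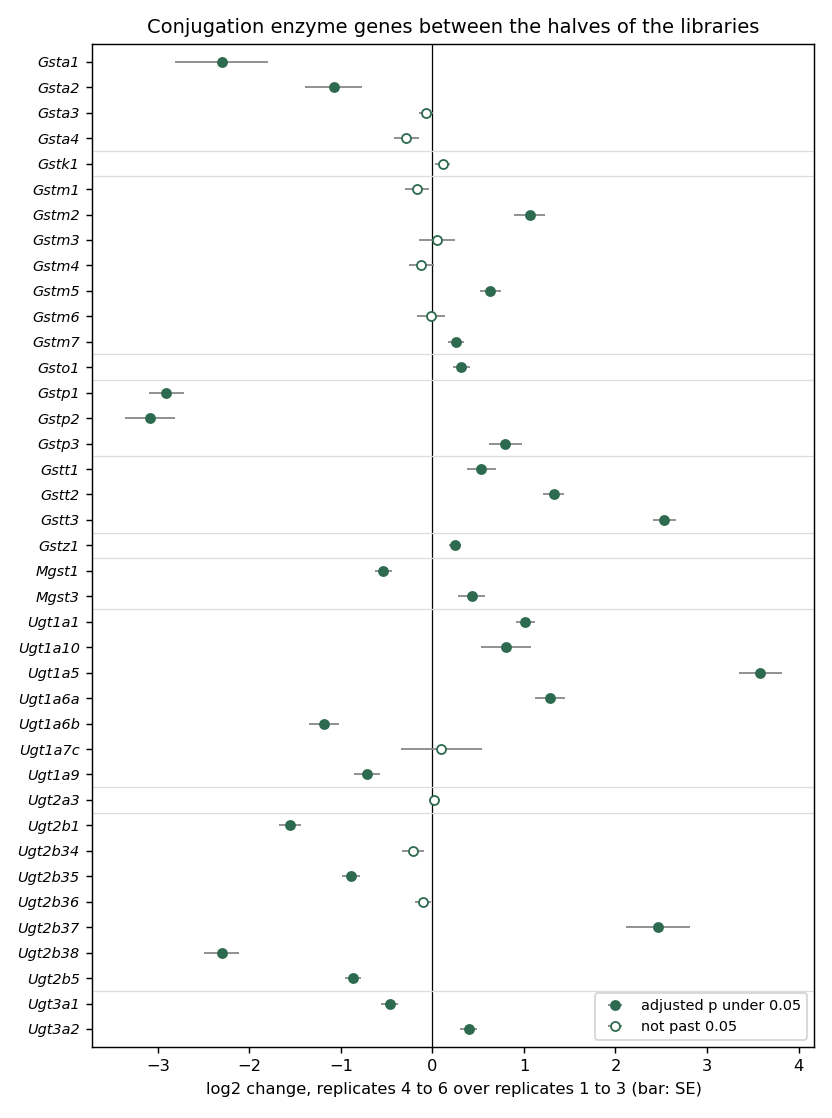
Log2 change of replicates 4 to 6 over replicates 1 to 3 for the 39 genes tested, averaged over Space, Ground and BDF1, grouped by class. Points are edgeR estimates with bars of 1 SE, and filled points passed an adjusted p of 0.05; Ugt1a5 lies farthest to the right at 3.58 and Gstp2 farthest to the left at -3.09.

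The pi class held both directions. Its genes lie side by side on chromosome 19 (GRCm38, minus strand), Gstp1 at chr19:4035407-4037985, Gstp2 at chr19:4040285-4046023 and Gstp3 at chr19:4057477-4059569. Their promoters are shown because Gstp1 fell and Gstp3 rose between the replicate sets. Each sequence runs from 250 bases before to 50 bases after the RefSeq start (GRCm38.p6, minus strand, chr19:4037863-4038162, chr19:4042172-4042471 and chr19:4059398-4059697). Capitals mark TGANNNNGC, the core letters of the antioxidant response element bound by Nrf2, on either strand.
Gstp1: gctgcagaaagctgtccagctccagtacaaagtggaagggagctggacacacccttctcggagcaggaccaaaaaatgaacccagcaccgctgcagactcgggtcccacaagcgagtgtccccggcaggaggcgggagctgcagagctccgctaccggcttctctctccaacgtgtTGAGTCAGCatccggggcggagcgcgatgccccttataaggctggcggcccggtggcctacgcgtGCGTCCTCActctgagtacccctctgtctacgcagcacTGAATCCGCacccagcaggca
Gstp2: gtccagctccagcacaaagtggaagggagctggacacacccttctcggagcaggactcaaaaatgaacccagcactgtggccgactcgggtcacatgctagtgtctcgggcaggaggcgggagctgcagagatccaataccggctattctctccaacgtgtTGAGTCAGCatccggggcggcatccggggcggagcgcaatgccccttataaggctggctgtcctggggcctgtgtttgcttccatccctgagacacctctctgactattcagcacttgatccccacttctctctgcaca
Gstp3: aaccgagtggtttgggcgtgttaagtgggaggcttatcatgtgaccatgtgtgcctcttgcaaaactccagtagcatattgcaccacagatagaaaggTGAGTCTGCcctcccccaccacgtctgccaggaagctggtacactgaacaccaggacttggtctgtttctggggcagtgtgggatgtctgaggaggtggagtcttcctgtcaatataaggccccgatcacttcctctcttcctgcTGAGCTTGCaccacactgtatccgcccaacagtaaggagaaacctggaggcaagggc
Gstp1 held 3 matches, at -74, -9 and 30 (first base of the match, counted from the start site with no position 0). Gstp2 held 1, at -89, with the same letters as the match at -74 of Gstp1. Gstp3 held 2, at -152 and -7. The letters are common: 41.3% of 32851 RefSeq promoters of this length held them, and so did 23 of the 51 promoters of conjugation genes in the table. Local alignment matched 237 of 274 bases (86.5%) between the promoters of Gstp1 and Gstp2, while Gstp3 aligned with them over at most 31 bases.

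Gstp1 lay between 995 and 1668 CPM (median 1453) in the 9 libraries numbered 1 to 3 and between 107 and 322 CPM (median 154) in those numbered 4 to 6. These ranges did not overlap, and the log2 change was -2.91 ± 0.19 (SE) with an edgeR adjusted p of 5.65e-09. Gstp2 lay between 2.42 and 6.51 CPM (median 3.18) in the 9 libraries numbered 1 to 3 and between 0.179 and 0.738 CPM (median 0.504) in those numbered 4 to 6, again without overlap, with a log2 change of -3.09 ± 0.27 (SE) with an edgeR adjusted p of 2.11e-07. In 44.9% of its 75-base windows Gstp2 has the letters of Gstp1, and its counts were 0.124% to 0.495% of those of Gstp1 in every library (median 0.248% in replicates 1 to 3 and 0.257% in replicates 4 to 6), so its own change is uncertain. Gstp3, which shares no 75-base window with another gene, went the other way by 0.79 ± 0.18 (SE) with an edgeR adjusted p of 0.00243. It took 0.9% ± 0.25 (SD, n = 3) of the counts of the 3 pi genes in BDF1 replicates 1 to 3 and 10.5% ± 2.6 in BDF1 replicates 4 to 6. In Space pups the same share went from 1.7% ± 0.3 to 20.8% ± 2.6. These shares also hold the fall of Gstp1, which had most of the pi counts. The mean of Gstp3 itself went from 10.9 to 16.3 CPM in BDF1 mice and from 25.3 to 51.5 CPM in Space pups.

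**Figure D2:**
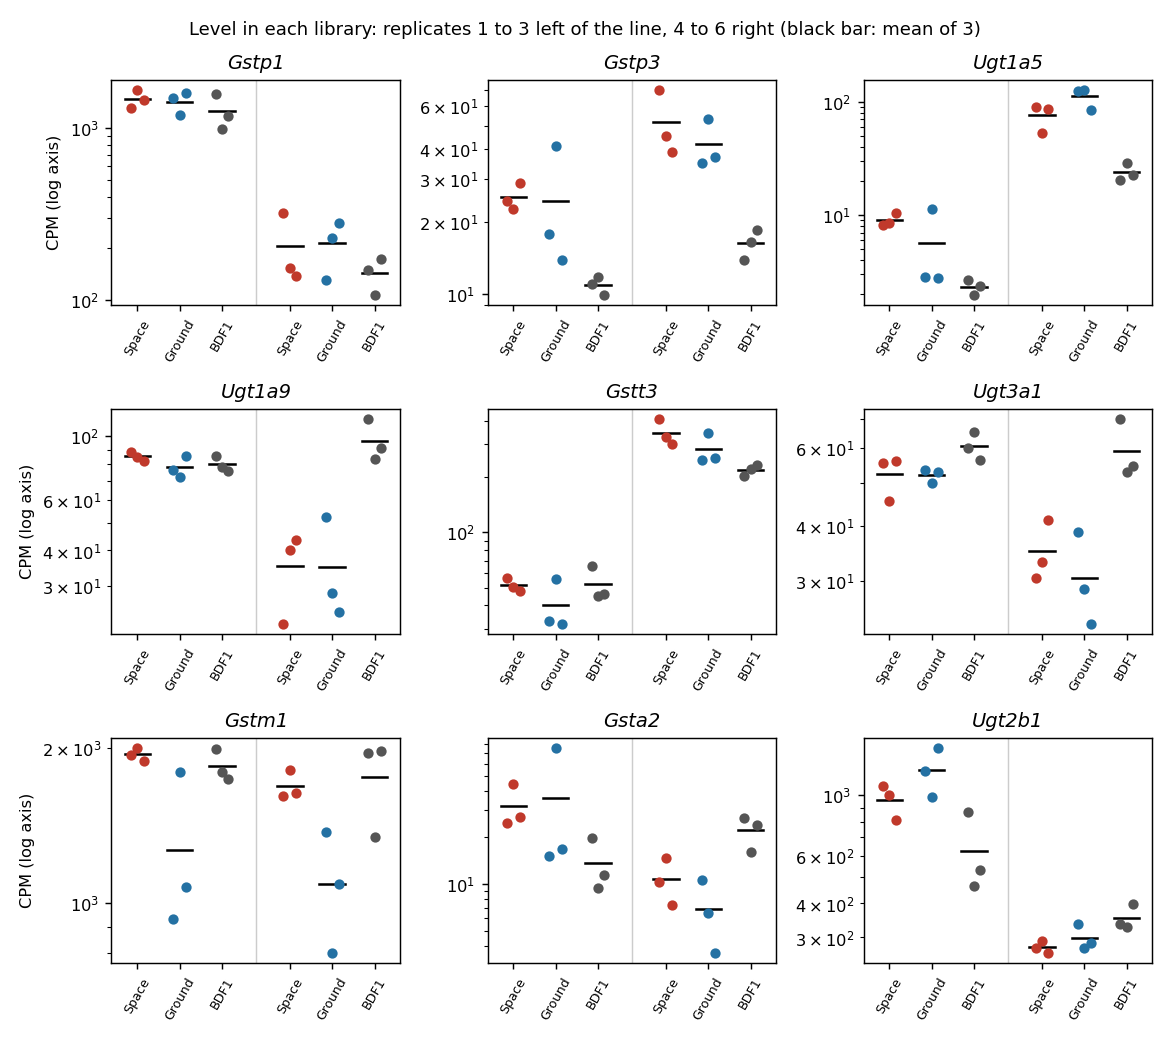
CPM on a log axis in each of the 18 libraries for 9 genes, replicates 1 to 3 left and 4 to 6 right of the grey line, with black bars at the mean of 3 libraries. Gstp1 is low in all 9 libraries numbered 4 to 6, Ugt1a5 and Gstt3 are high there, and Ugt1a9 is low only in the 6 pup libraries of that replicate set.

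Theta class genes, which act on small halogenated compounds and peroxides, were higher in replicates 4 to 6. Gstt3 lay between 31.8 and 65.8 CPM (median 48.0) in the 9 libraries numbered 1 to 3 and between 201 and 411 CPM (median 251) in those numbered 4 to 6. Its log2 change was 2.53 ± 0.13 (SE) with an edgeR adjusted p of 1.93e-10, with no overlap of the replicate sets. Gstt2 also separated the replicate sets, at 25.6 to 61.2 against 71.7 to 144 CPM and a log2 change of 1.33 ± 0.12 (SE) with an edgeR adjusted p of 2.15e-07. Gstt1 changed by 0.53 ± 0.16 (SE) with an edgeR adjusted p of 0.0143 and overlapped widely. Its call was lost with total counts, at 0.31.

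Alpha class genes, active on lipid peroxides and aldehydes, went down or did not pass. Gsta2 changed by -1.08 ± 0.31 (SE) with an edgeR adjusted p of 0.0109, and that call was lost without the 3 libraries high in Serpina6, while without Ground replicate 2 the change was -0.69. Its mean went from 32.1 to 10.7 CPM in Space and from 36.0 to 6.89 CPM in Ground, where replicate 2 at 76.0 CPM stood apart from 15.2 and 16.8 CPM in replicates 1 and 3, but from 13.6 to 22.3 CPM in BDF1 mice. Gsta1 changed by -2.30 ± 0.51 but lay at or under 2.16 CPM in every library and has 84.7% of its windows in other genes. Gsta3, the most abundant alpha gene, differed by -0.07 ± 0.08 (SE) with an edgeR adjusted p of 0.499. Within the mu class Gstm2 changed by 1.06 ± 0.17 (SE) with an edgeR adjusted p of 0.000132, Gstm5 by 0.63 ± 0.11 and Gstm7 by 0.26 ± 0.09, while the other 4 did not pass. Mgst1 fell by 0.54 on the log2 scale (SE 0.09), with an edgeR adjusted p of 0.000299. Its mean went from 3112 to 2005 CPM in Space and from 2944 to 1577 CPM in Ground, against 2130.3 to 2028 CPM in BDF1 mice. Gsto1, an omega enzyme that reduces dehydroascorbate, and Gstz1, which isomerizes maleylacetoacetate in tyrosine breakdown, changed by 0.31 ± 0.09 and 0.25 ± 0.07. With total counts neither passed, and Gstz1 turned to -0.010.

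On chromosome 1 the Ugt1a locus spans 9 genes that end in the same exons. Promoters of Ugt1a5 (chr1:88165762-88166061) and Ugt1a9 (chr1:88070529-88070828), plus strand, are printed because these 2 genes, Ugt1a5 at chr1:88166012-88218997 and Ugt1a9 at chr1:88070800-88218997, moved in opposite directions in pups, whereas in BDF1 mice both means were higher in replicates 4 to 6. Capitals mark TGANNNNGC as above.
Ugt1a5: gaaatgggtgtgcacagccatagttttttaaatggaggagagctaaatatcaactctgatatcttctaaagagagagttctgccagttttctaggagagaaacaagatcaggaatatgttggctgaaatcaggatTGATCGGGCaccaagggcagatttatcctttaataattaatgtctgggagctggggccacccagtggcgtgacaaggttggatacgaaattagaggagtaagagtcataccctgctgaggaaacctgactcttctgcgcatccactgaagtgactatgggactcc
Ugt1a9: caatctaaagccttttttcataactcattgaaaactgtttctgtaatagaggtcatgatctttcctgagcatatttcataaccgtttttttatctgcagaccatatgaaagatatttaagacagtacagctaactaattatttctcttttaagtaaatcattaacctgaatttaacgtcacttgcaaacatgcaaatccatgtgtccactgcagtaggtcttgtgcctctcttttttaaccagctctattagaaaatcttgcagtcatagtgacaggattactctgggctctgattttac
Ugt1a5 held TGANNNNGC at -115, and in this window of Ugt1a9 the letters were not found. Searched in the same way, GCGTG, the core bound by the aryl hydrocarbon receptor, was in 32.4% of all promoters and in 10 of those 51. The spaced repeat TTCNNNGAA bound by STAT factors was in 8.3% and in 5 of 51. In Gstp1 the match at -9 shares its first base with a GCGTG on the other side. A match describes letters only.

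Ugt1a5 rose most of all 39 genes. It lay between 1.98 and 11.2 CPM (median 2.83) in the 9 libraries numbered 1 to 3 and between 20.4 and 127 CPM (median 85.2) in those numbered 4 to 6, and its log2 change was 3.58 ± 0.23 (SE) with an edgeR adjusted p of 5.25e-09. Ugt1a1 lay between 80.1 and 111 CPM in replicates 1 to 3 and between 127 and 262 CPM in replicates 4 to 6, with a change of 1.01 ± 0.11 (SE) with an edgeR adjusted p of 1.54e-06. Neither gene overlapped between the replicate sets. Ugt1a6a and Ugt1a6b, neighbours that conjugate planar phenols, moved apart, by 1.28 ± 0.16 and -1.18 ± 0.17. In 74.5% of its windows Ugt1a6b has the letters of Ugt1a6a, most of them in shared exons, and how reads there were assigned is not given in the sources used here. Ugt1a9, a phenol and drug enzyme, changed by -0.71 ± 0.14 (SE) with an edgeR adjusted p of 0.00089, a mean over groups that differ as described below.

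Ugt2b genes, which conjugate steroids, bile acids and drugs and lie together on chromosome 5, split into 4 that fell, 1 that rose and 2 that did not pass. Ugt2b1 lay between 465 and 1493 CPM (median 983) in the 9 libraries numbered 1 to 3 and between 264 and 399.6 CPM (median 290.4) in those numbered 4 to 6. The replicate sets were separate, with a log2 change of -1.55 ± 0.12 (SE) with an edgeR adjusted p of 4.71e-08. Ugt2b5 and Ugt2b38 were also separate, with changes of -0.87 ± 0.09 and -2.30 ± 0.19. Ugt2b38 has 27.9% of its windows in Ugt2b5. Its counts were 1.53% to 3.97% of those of Ugt2b5 in replicates 1 to 3 and 0.563% to 1.57% in replicates 4 to 6. The part of shared reads in the change of Ugt2b38 was not tested. Ugt2b35 changed by -0.89 ± 0.10 (SE) with an edgeR adjusted p of 3.01e-06. Ugt2b37 was the exception and rose by 2.47 ± 0.35 (SE), with 43.1 CPM in Ground replicate 4 and at most 18.4 CPM in all others. Ugt3a genes, whose enzymes use other sugars than glucuronate, split, with Ugt3a1 at -0.47 ± 0.09 (means of 60.6 to 59.2 CPM in BDF1 mice) and Ugt3a2 at 0.39 ± 0.09. Mgst3, a membrane-bound enzyme, and the weakly expressed Ugt1a10 were the last to pass, at 0.43 ± 0.15 and 0.80 ± 0.27. Gsta3, Gsta4, Gstk1, Gstm1, Gstm3, Gstm4, Gstm6, Ugt1a7c, Ugt2a3, Ugt2b34 and Ugt2b36 did not.

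Comparison of each kind of pup with BDF1 mice asked whether descent from frozen GS cells went with a different liver profile. Both use the same 6 BDF1 libraries and are set side by side. In replicates 1 to 3, Space pups differed from BDF1 mice in 4 of the 39 genes, all higher, and Ground pups in 1, higher. Of all genes 4.64% were called in the first comparison (2.85% higher and 1.8% lower) and 1.92% in the second (1.14% higher and 0.786% lower). In replicates 4 to 6, Space pups differed in 9, 3 higher and 6 lower, beside 11.9% of all genes (6.43% higher and 5.49% lower), and Ground pups in 10, 2 higher and 8 lower, beside 15.2% (7.86% and 7.35%). Median log2 differences of the 39 genes were 0.16 and 0.14 in replicates 1 to 3 and -0.02 and -0.32 in replicates 4 to 6, for Space and Ground in that order. Over all genes the medians in these 4 comparisons were at most 0.01.

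Scaled by total counts instead the calls in replicates 4 to 6 were 16 for Space (2 higher) and 26 for Ground (2 higher), and the median of all genes moved by -0.40 and -0.47. The calls of Space pups in replicates 1 to 3 went to 0 without Space replicate 6 and BDF1 replicate 3, and those of Ground pups in replicates 4 to 6 went to 4 without the libraries high in Serpina6. Shares of all genes given above are those of the fit of 18 libraries with TMM factors. They cannot be set beside the counts of these other fits. Averaged over the replicate sets, 7 genes differed between Space pups and BDF1 mice (4 higher and 3 lower, beside 12.9% of all genes, 7% higher and 5.91% lower) and 9 between Ground pups and BDF1 mice (2 higher and 7 lower, beside 14.6%, 7.26% higher and 7.35% lower).

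**Figure D3:**
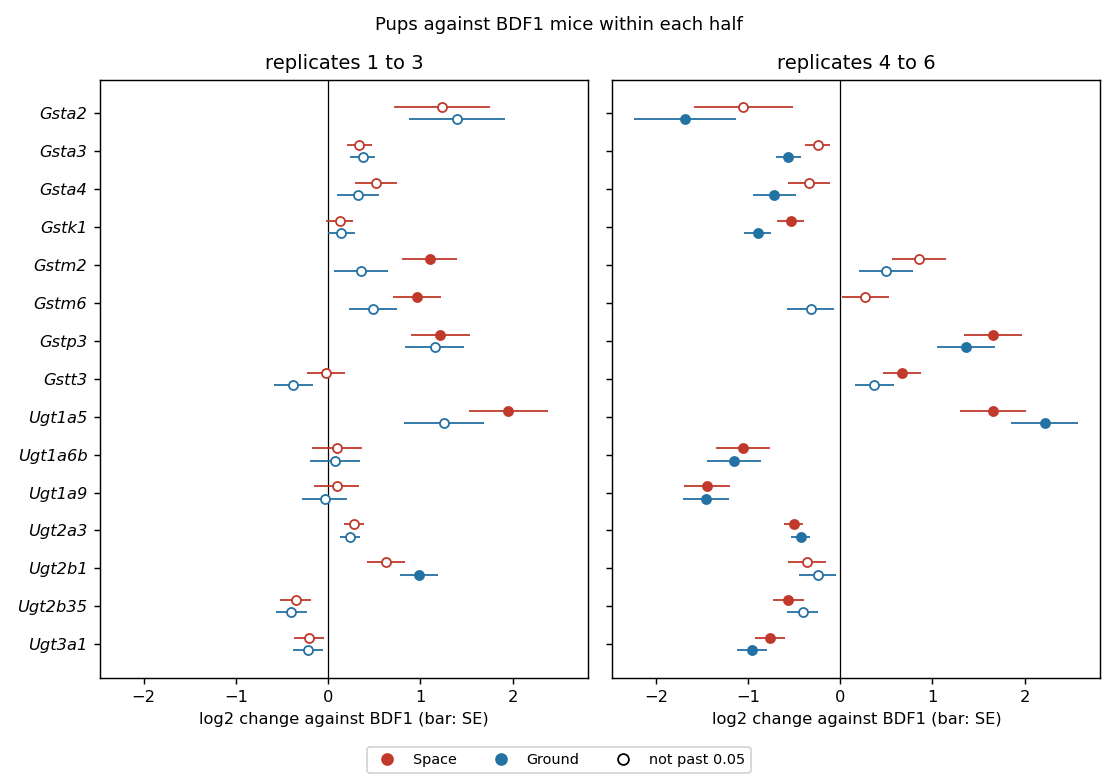
Log2 change of Space (red) and Ground (blue) pups against BDF1 mice in replicates 1 to 3 (left) and 4 to 6 (right), for the 15 genes that passed in at least 1 of these comparisons. Points are edgeR estimates with bars of 1 SE and filled points passed an adjusted p of 0.05; Gstp3 and Ugt1a5 lie right of 0 in both panels, and Ugt1a9 lies near 0 on the left and at -1.45 and -1.46 on the right.

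Ugt1a5 was higher in pups. In replicates 1 to 3 it stood at 8.18, 8.56 and 10.5 CPM in Space pups, 2.83, 11.2 and 2.81 CPM in Ground pups and 2.67, 1.98 and 2.35 CPM in BDF1 mice. In replicates 4 to 6 the values were 89.9, 52.9 and 85.5 CPM in Space, 124, 127 and 85.2 CPM in Ground and 20.4, 29.0 and 22.8 CPM in BDF1. All pup libraries lay above the BDF1 libraries of their replicate set, but Ground replicates 1 and 3 only narrowly. Log2 changes in replicates 4 to 6 were 1.66 ± 0.36 (SE) with an edgeR adjusted p of 0.00831 for Space and 2.22 ± 0.36 (SE) with an edgeR adjusted p of 0.0011 for Ground. In replicates 1 to 3 they were 1.95 ± 0.43 (SE) with an edgeR adjusted p of 0.0165 and 1.26 ± 0.44 (SE) with an edgeR adjusted p of 0.157. Without Space replicate 3, BDF1 replicate 2 or BDF1 replicate 3 the Space call in replicates 1 to 3 was lost, with estimates over all alternatives between 1.82 and 2.07. Calls in replicates 4 to 6 were kept with each of the 18 libraries left out.

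Gstp3 was the other gene higher in both kinds of pup. Space pups held 24.4, 22.7 and 28.9 CPM in replicates 1 to 3 and 70.2, 45.4 and 38.9 CPM in replicates 4 to 6. In Ground pups the levels were 17.7, 41.3 and 13.9 and 35.0, 53.3 and 37.0 CPM, and in BDF1 mice 11.0, 11.8 and 9.92 and 13.9, 16.5 and 18.4 CPM. Every pup library was above every BDF1 library of its replicate set. Averaged over the replicate sets, the log2 change was 1.44 ± 0.22 (SE) with an edgeR adjusted p of 0.00104 in Space and 1.26 ± 0.22 (SE) with an edgeR adjusted p of 0.00223 in Ground, and both calls were kept in every alternative run. Within replicates 1 to 3 the Space value of 1.21 ± 0.32 (SE) with an edgeR adjusted p of 0.0401 lost its call in 8 of 18 fits that left out 1 library, and the Ground value of 1.15 ± 0.32 did not pass. Gstp1 in the same cluster did not pass, at 0.38 ± 0.22 and 0.38 ± 0.22.

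Ugt1a9 was lower in pups of replicates 4 to 6. It stood at 22.2, 40.2 and 43.6 CPM in Space, 52.5, 28.5 and 24.3 CPM in Ground and 115, 83.4 and 91.2 CPM in BDF1 libraries. Replicates 1 to 3 held 88.4, 84.9 and 82.2, 76.3, 72.3 and 85.1 and 85.5, 78.1 and 76.0 CPM in the same order of groups. Pups of replicates 4 to 6 thus lay under all other libraries. The log2 change in that replicate set was -1.45 ± 0.25 (SE) with an edgeR adjusted p of 0.0023 for Space and -1.46 ± 0.25 (SE) with an edgeR adjusted p of 0.00148 for Ground, kept in every alternative. Tests of the difference between replicate sets gave -1.54 ± 0.35 (SE) with an edgeR adjusted p of 0.0231 and -1.42 ± 0.35 (SE) with an edgeR adjusted p of 0.0385. These were lost in 5 and 14 of 18 fits that left out 1 library. Differences of this kind passed for 2 genes in the Space comparison, both lower, beside 3.19% of all genes (1.77% higher and 1.42% lower), and for 6 in the Ground comparison, all lower, beside 2.74% (1.34% higher and 1.4% lower). Without Space replicate 6 and BDF1 replicate 3 both counts were 0, while the Ugt1a9 differences stayed at -1.68 and -1.39.

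Shares within the Ugt1a locus need no scaling between libraries, but they depend on how reads in the shared exons were assigned. In BDF1 mice Ugt1a9 made up 39.6% ± 1.4 (SD, n = 3) of Ugt1a counts in replicates 1 to 3 and 25.8% ± 2.1 in replicates 4 to 6. That share fell although the mean of Ugt1a9 went from 79.9 to 96.6 CPM, while the locus sum went from 202 to 373 CPM. In Space pups the share of Ugt1a9 went from 39.7% ± 2.6 to 11.9% ± 3.2, and in Ground pups from 38.7% ± 3.0 to 9.7% ± 2.7. Ugt1a5 went the other way, from 1.2% ± 0.1 to 6.6% ± 1.7 in BDF1 mice, 4.2% ± 0.8 to 26.1% ± 7.6 in Space and 2.9% ± 2.6 to 31.5% ± 1.9 in Ground pups. In replicates 4 to 6 the pup and BDF1 ranges of both shares were apart. Ugt1a6b followed Ugt1a9, with 2.2% ± 0.7 in Space, 1.7% ± 0.6 in Ground and 3.8% ± 0.2 in BDF1 replicates 4 to 6. Ugt1a1 held 40.5% to 61.1% of the locus in every library. Summed over its genes, the locus lay at 294 ± 46.9 CPM (SD, n = 3) in Space, 355 ± 68.3 in Ground and 373 ± 48.5 in BDF1 replicates 4 to 6, with overlapping ranges.

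**Figure D4:**
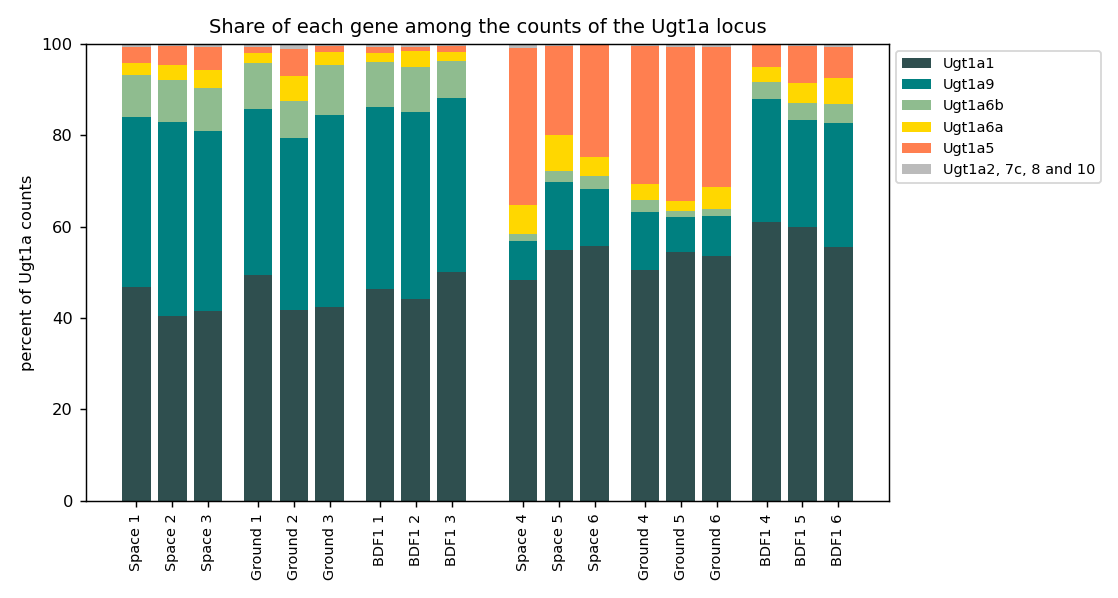
Stacked bars show the percent of Ugt1a counts that each gene took in each of the 18 libraries, ordered by replicate set and group. The Ugt1a5 part is widest in the 6 pup libraries numbered 4 to 6, at 19.4% to 34.3%, where the Ugt1a9 part is narrowest.

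Other genes fell in pups of replicates 4 to 6 in both comparisons. Ugt3a1 lay at 30.4, 33.1 and 41.3 CPM in Space, 38.6, 28.8 and 23.9 CPM in Ground and 70.0, 53.0 and 54.5 CPM in BDF1 libraries, with all pups under all BDF1 mice. Its changes were -0.76 ± 0.16 (SE) with an edgeR adjusted p of 0.00761 and -0.96 ± 0.16 (SE) with an edgeR adjusted p of 0.00139. Ugt2a3, a bile acid enzyme, lay at 214, 194 and 198 CPM in Space, 204, 200.5 and 234 CPM in Ground and 291, 261 and 309 CPM in BDF1 replicates 4 to 6. That is again without overlap, and the changes were -0.51 ± 0.11 (SE) with an edgeR adjusted p of 0.00684 and -0.43 ± 0.11 (SE) with an edgeR adjusted p of 0.0124. In replicates 1 to 3 Ugt2a3 was not lower in pups, at 0.28 ± 0.11 and 0.24 ± 0.11, and the difference between replicate sets passed in both, at -0.79 ± 0.15 (SE) with an edgeR adjusted p of 0.00868 for Space and -0.67 ± 0.15 (SE) with an edgeR adjusted p of 0.0253 for Ground, the latter lost in 5 of 18 fits that left out 1 library. Gstk1, the kappa class enzyme of mitochondria and peroxisomes, changed by -0.54 ± 0.14 (SE) with an edgeR adjusted p of 0.0251 in Space and -0.89 ± 0.14 (SE) with an edgeR adjusted p of 0.001 in Ground pups. Ugt1a6b changed by -1.06 ± 0.29 and -1.15 ± 0.29, and Ugt2b35 by -0.56 ± 0.17 in Space, while its -0.41 ± 0.17 in Ground did not pass there.

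With 1 library left out in turn, both Ugt3a1 calls, the Ugt2a3 call in Space and the Gstk1 call in Ground were always kept, the Ugt2a3 call in Ground was lost only without BDF1 replicate 6, and the Gstk1 call in Space, the Ugt1a6b calls in Space and Ground and the Ugt2b35 call were lost in 4, 4, 3 and 11 of 18 fits. Without the libraries high in Serpina6 the Ground calls of Ugt3a1, Ugt2a3 and Ugt1a6b and the Space call of Gstk1 were lost, and a fit of only that replicate set lost the calls of Ugt3a1, Gstk1 and Ugt2b35 in Space, Ugt2a3 in Ground and Ugt1a6b in both. Marker sums differed in the same replicate set. Hepatocyte markers, 8 genes with Alb among them, summed to 230235 to 413158 CPM in pups and 85248 to 108353 CPM in BDF1 mice of replicates 4 to 6. Erythroid markers, 6 genes, summed to 102 to 719 CPM in pups and 32.3 to 88.2 CPM in BDF1 mice of replicates 4 to 6. All 8 pericentral genes were detected, and they summed to 4272 to 5715 CPM in pups and 6635 to 8910 CPM in BDF1 mice of replicates 4 to 6. Most of that sum is Cyp2e1, at 3190.0 to 4229.9 CPM in those pups and 4965 to 6576 CPM in BDF1 mice, while Slc1a2 overlapped at 131 to 321 and 141 to 156 CPM. Likewise 8 of 8 periportal genes were detected, at 5754 to 11633 CPM in those pups against 13472 to 16659.8 CPM, though Cyp2f2 among them overlapped at 728 to 1625 and 936 to 1238 CPM. Their part in these falls was not tested.

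Several calls were made against BDF1 mice in only 1 kind of pup, and whether the 2 kinds differ there is a matter of the direct comparison below. In Ground pups of replicates 4 to 6 the alpha genes Gsta2, Gsta3 and Gsta4 changed by -1.68 ± 0.55 (SE) with an edgeR adjusted p of 0.0498, -0.56 ± 0.14 (SE) with an edgeR adjusted p of 0.0116 and -0.71 ± 0.23 (SE) with an edgeR adjusted p of 0.0467. Gsta3 stood at 924, 838 and 804 CPM in Ground and 1240.2, 1176 and 1371 CPM in BDF1, and at 1054, 1160.5 and 984 CPM in Space. No Ground library reached a BDF1 library, and Space lay between, at -0.24 ± 0.14. Leaving out 1 library ended the Gsta2 call in 14 of 18 fits and the Gsta4 call in 12, and that of Gsta3 only without BDF1 replicate 6. All 3 were lost without the libraries high in Serpina6, 2 of which are Ground libraries of this replicate set. Averaged over replicate sets, Gstm1 was lower in Ground pups than in BDF1 mice by a log2 change of -0.61 ± 0.16 (SE) with an edgeR adjusted p of 0.0189. Gstm4 and Gstt2 were lower as well, at -0.68 ± 0.16 (SE) with an edgeR adjusted p of 0.013 and -0.63 ± 0.14 (SE) with an edgeR adjusted p of 0.00829. These 3 calls were kept with each library left out and lost without the 3 Serpina6-high libraries. In Space pups Gstt2 also lay under BDF1 mice in replicates 1 to 3, at 33.8 to 41.3 against 46.3 to 61.2 CPM. It overlapped BDF1 in replicates 4 to 6. Ugt2b1 was higher in Ground replicates 1 to 3, at 1229, 983 and 1493 CPM against 870.2, 465 and 532 CPM, with a change of 0.99 ± 0.21 (SE) with an edgeR adjusted p of 0.0226. That call was lost without Ground replicate 1, Ground replicate 3, BDF1 replicate 2 or BDF1 replicate 3, and with total counts.

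Space pups differed from BDF1 mice in genes of the mu and theta classes. Gstm2 stood at 75.9, 83.1 and 63.3 CPM in Space and 39.5, 36.3 and 27.6 CPM in BDF1 replicates 1 to 3, and at 174, 135 and 93.1 and 82.4, 60.9 and 78.1 CPM in replicates 4 to 6. No Space library fell into the BDF1 range of its replicate set. Ground libraries stood at 31.5, 72.4 and 28.7 CPM in replicates 1 to 3, overlapping BDF1, and at 83.9, 114 and 114 CPM in replicates 4 to 6, also above BDF1. The Space change of Gstm2 averaged over replicate sets was 0.98 ± 0.21 (SE) with an edgeR adjusted p of 0.00699, kept with each library left out. In replicates 1 to 3 marker sums of Space pups and BDF1 mice were apart for hepatocytes (98874 to 102378 and 68943 to 87551 CPM) and endothelial cells (85.3 to 95.7 and 113 to 131 CPM). They were also apart for stellate cells and fibroblasts (179 to 226 and 123.3 to 149.9 CPM) and periportal hepatocytes (14228 to 14283 and 10115 to 12196 CPM). Their part in the Gstm2 difference was not tested. Gstm6 changed by 0.62 ± 0.18 (SE) with an edgeR adjusted p of 0.0357, a call lost in 8 of 18 such fits and in 4 other alternatives, among them total counts, at 0.35. Gstt3 changed by 0.67 ± 0.21 (SE) with an edgeR adjusted p of 0.0446 in replicates 4 to 6, lost in 10 of 18 and in 4 other alternatives, among them total counts, at 0.26. Ground replicates 4 to 6, at 246, 345 and 251 CPM of Gstt3, also lay above the BDF1 libraries at 201, 219 and 231 CPM.

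Direct comparison of Space with Ground pups asked whether storage in space went with a difference. Per the study's text only some recipients of each kind of cell became fertile. The recipient and litter of each pup are not given in the sources used here. Pups of 1 group may thus share a recipient or litter, and such an effect cannot be told apart from storage. No conjugation gene passed in replicates 1 to 3, beside 0.00749% of all genes, in replicates 4 to 6, beside 0.0225%, or averaged over both, beside 0.0225% (edgeR). At an unadjusted p under 0.05 there were 4, 8 and 10 of 39 genes, beside 1292, 1852 and 2134 of all 13356. DESeq2 called 0, 0 and 2, the 2 being Gstm1 and Gstm4, and in that averaged comparison it called 279 of all genes (2.09%). The difference between the replicate sets also passed for 0 genes, beside 0%, with 1 at an unadjusted p under 0.05, beside 1038 of all genes, and 0 in DESeq2. Median log2 differences of the 39 genes were 0.05 and 0.27 in the 2 replicate sets, against -0.01 for all genes in each, and 27 of 39 were above 0 in either replicate set. Glutathione transferases had medians of 0.17 and 0.36, with 16 and 19 of 22 above 0, and glucuronosyltransferases of 0.03 and -0.01. Summed over its genes the first class stood at 9491 ± 514 CPM (SD, n = 3) in Space and 8368 ± 1293 CPM in Ground replicates 1 to 3, with overlapping ranges. In replicates 4 to 6 it stood at 7369.9 ± 593 and 5645 ± 500.4 CPM, with Space libraries at 6874 to 8026 and Ground libraries at 5139 to 6139 CPM. The 2 lowest Ground sums were those of replicates 5 and 6, both high in Serpina6. Space replicate 4 was also high in Serpina6, and its sum lay above every Ground sum of this replicate set. Gstm4 stood at 34.2 and 37.5 CPM in Ground replicates 5 and 6, against 67.4 CPM in Ground replicate 4 and 49.1 to 67.8 CPM in Space. Not all members went this way. Gstz1 stood at 736 and 752 CPM in Ground replicates 5 and 6 against 591 CPM in Ground replicate 4, and Gstm2 at 114 and 114 against 83.9 CPM. The part of the libraries high in Serpina6 in this difference was not tested.

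**Figure D5:**
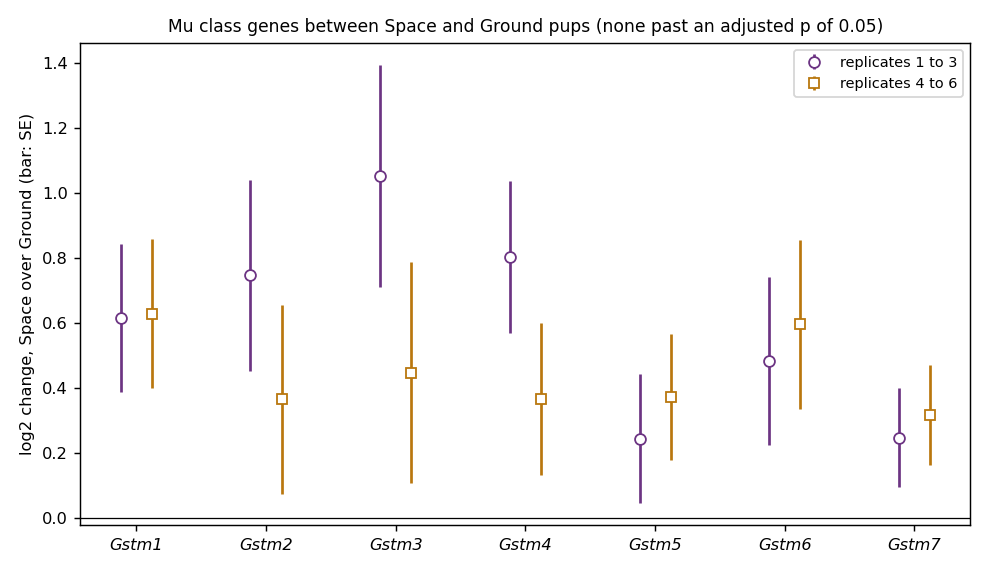
Log2 change of Space over Ground pups for the 7 mu class genes in replicates 1 to 3 (circles) and 4 to 6 (squares), with bars of 1 SE. All 14 estimates lie above 0, from 0.24 to 1.05, and none passed an adjusted p of 0.05.

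Mu class genes, which detoxify epoxides and quinones and lie in a row on chromosome 3, had estimates above 0 in both replicate sets for all 7 members. Gstm1 stood at 1936, 2000.4 and 1889.8 CPM in Space and 933, 1796 and 1075 CPM in Ground replicates 1 to 3. In replicates 4 to 6 it stood at 1612, 1809 and 1632 and 1377, 802 and 1091 CPM. Every Space library was above every Ground library of its replicate set, though Ground replicate 2 came close. Averaged over replicate sets the estimate was 0.62 ± 0.16 (SE) with an edgeR adjusted p of 0.12. Gstm4 had 0.59 ± 0.17 (SE) with an edgeR adjusted p of 0.133, Gstm3 0.75 ± 0.24 (SE) with an edgeR adjusted p of 0.166 and Gstm2 0.56 ± 0.21 (SE) with an edgeR adjusted p of 0.214. Summed over the 7 genes, Ground replicates 1, 2 and 3 held 1141, 2222 and 1282 CPM, while Space replicates 1 to 3 held 2404, 2469 and 2266 CPM.

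The outcome of this comparison turned on Ground replicate 2. Without it 9 conjugation genes passed averaged over replicate sets, all higher in Space, beside 3.94% of all genes, and 5 passed in replicates 1 to 3, all higher, beside 0.559%. The 9 were Gstm1 (0.79 ± 0.14), Gstm2 (0.83 ± 0.16), Gstm3 (1.02 ± 0.21), Gstm4 (0.74 ± 0.15), Gstm6 (0.81 ± 0.12), Gstm7 (0.41 ± 0.08), Gstt2 (0.58 ± 0.12), Gstt3 (0.48 ± 0.13) and Mgst3 (0.64 ± 0.15, log2 ± SE). Of the other 17 libraries, none when left out gave a call. In that fit Ugt1a5 was higher in Space replicates 1 to 3 by 1.68 ± 0.27 on the log2 scale, and its difference between replicate sets passed at -2.24 ± 0.33. Ground replicates 1 and 3 also had more of the 8 macrophage markers, which summed to 223 and 209.9 CPM against 94.5 CPM in Ground replicate 2 and 90.4 to 122.9 CPM in Space replicates 1 to 3. Endothelial markers, 8 genes, summed to 141 and 166 CPM against 99.4 CPM and 85.3 to 95.7 CPM. Their part in the mu class values was not tested.

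The rest of the detoxification pathway was read from 6 lists, averaged over replicate sets, where 12.9% of all genes were called for Space against BDF1 mice (7% higher and 5.91% lower) and 14.6% for Ground (7.26% higher and 7.35% lower). Of 11 genes tested for glutathione synthesis and recycling, 3 passed between Space pups and BDF1 mice (2 higher, 1 lower) and 3 between Ground pups and BDF1 mice (1 higher, 2 lower). Gpx1, the peroxidase that uses glutathione, was lower in both, at -0.64 ± 0.18 (SE) with an edgeR adjusted p of 0.0276 and -0.87 ± 0.18 (SE) with an edgeR adjusted p of 0.00506. Glrx, a glutaredoxin, was higher in both, at 0.34 ± 0.10 and 0.32 ± 0.10. Ggct, which breaks down gamma-glutamyl peptides, was higher in Space at 0.44 ± 0.12, and Gsr, glutathione reductase, lower in Ground at -0.39 ± 0.11.

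In the mercapturate pathway, which trims and acetylates glutathione conjugates, 2 of 11 genes were lower in Space and 4 of 11 lower in Ground, beside 5.91% and 7.35% of all genes, with none higher. Ggt6, of the gamma-glutamyltransferase family, stood at -0.50 ± 0.14 (SE) with an edgeR adjusted p of 0.0283 and -0.76 ± 0.14 (SE) with an edgeR adjusted p of 0.00277. Nat8f2, of the N-acetyltransferase family, stood at -0.50 ± 0.12 (SE) with an edgeR adjusted p of 0.0155 and -0.61 ± 0.12 (SE) with an edgeR adjusted p of 0.00447. Lap3, an aminopeptidase, was lower in Ground at -0.29 ± 0.07. Of 8 genes for UDP-glucuronate supply and glucuronide hydrolysis, none passed in either averaged comparison. In conjugate export 1 of 7 passed for Space, the transporter gene Abcc5 at 0.50 ± 0.15, and none for Ground.

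Among 16 tested regulators and targets of Nrf2, 4 were higher and none lower in Space pups against BDF1 mice, while Ground pups had 2 higher and 1 lower. Over all genes 7% were higher in Space, and 7.26% were higher and 7.35% lower in Ground. G6pdx, which makes the NADPH that glutathione reductase uses, was higher in both, at 1.17 ± 0.22 (SE) with an edgeR adjusted p of 0.00384 and 0.88 ± 0.23 (SE) with an edgeR adjusted p of 0.017. Pgd and Taldo1 of the same sugar phosphate route were higher in Space, at 0.66 ± 0.14 and 0.33 ± 0.10. In Ground, Srxn1 stood at -0.25 ± 0.07 and Hmox1 at 0.95 ± 0.27. Hmox1, which macrophages also express, lay between 11.7 and 37.3 CPM in Ground and between 7.68 and 16.6 CPM in BDF1 libraries. The 8 macrophage markers summed to 94.5 to 246 CPM in Ground and 84.7 to 185 CPM in BDF1 libraries. In Ground replicates 1 to 6 Hmox1 was at 18.3, 13.0, 32.1, 37.3, 18.6 and 11.7 CPM. The macrophage markers of these libraries summed, in the same order, to 223, 94.5, 209.9, 208, 246 and 149 CPM. Their part in the Hmox1 value was not tested. Of 14 xenobiotic receptors and targets, 1 was higher in Space, and 3 were higher and 2 lower in Ground. Nr1i2, the pregnane X receptor, was higher in both, at 0.77 ± 0.10 (SE) with an edgeR adjusted p of 0.000341 and 0.50 ± 0.10 (SE) with an edgeR adjusted p of 0.00497. Nr1i3, the constitutive androstane receptor, stood at 0.82 ± 0.20 in Ground. Por, the electron donor of cytochromes P450, was lower in Ground at -0.45 ± 0.11. Between Space and Ground pups none of the 67 tested genes of the 6 lists passed in either replicate set or averaged.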

How the data were processed

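Liver RNA of 18 libraries was measured by stranded mRNA sequencing. The authors deposited whole-number counts per gene. Per the submitters' processing notes they used bcl2fastq 2.20, cutadapt 4.6, HISAT2 2.2.1, HTSeq 2.0.2 and the mm10 build, and the strand setting and the treatment of reads in shared exons are not given in the sources used here. Identifiers matched GENCODE release M21 for 32235 of 32285 genes, which gave lengths and GRCm38 coordinates. Promoters were those of RefSeq GRCm38.p6, and 42 of the 46 genes had one.

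Groups were taken from the labels. Counts were fitted with edgeR 4.0.16 in R 4.3.3 (TMM factors, filterByExpr, quasi-likelihood F-test) with 6 means, 1 for each group and replicate set, over 18 libraries, and p-values were adjusted over 13356 genes with a threshold of 0.05. Named genes were the member of each family with the highest mean CPM, those with a mean of at least 1 CPM called in a group comparison or in a difference between replicate sets (up to 25), and the 6 largest rises and 6 largest falls between replicate sets; from the pathway lists up to 3 genes a list were named by p in the averaged comparisons. Results on 2 genes of these lists are not reported here. Any other member named was chosen after its values were seen. Members and lists were chosen with earlier results of these data known. Sharing was measured as the percent of a gene's 75-base transcript windows found in another gene. Alternatives were total counts, DESeq2 1.42.0 and its size factors, no filter, a replicate block, fits of 1 replicate set or of group alone, and leaving out libraries. Python 3.11.15 with pandas 2.3.3, Biopython 1.88 and matplotlib 3.10.9 made the tables and figures. The labels list replicates as separate samples without saying that each is another animal, so p-values measure the spread between libraries, which may be technical in part, and floors of 3 counts cover counting error only.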

Additional observations from a re-analysis of the deposited data

Results flagged for a closer look

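In 3 of 87 sets of 6 libraries, 1 gene in 1 group each, a library stood apart from the other 5 by the ratio of its gap to the range (Dixon's 95% limit), where chance gives 1 in 20, or 4.35, for sets drawn from 1 population. These sets join replicates 1 to 3 with 4 to 6, which differ for many genes, so that number is not exact here. Gsta2 was at 76.0 CPM in Ground replicate 2 and at most 16.8 CPM in the other Ground libraries (ratio 0.818). Gstm6 was at 138 CPM in the same library against 74.5 CPM (0.784). Ugt2b37 was at 43.1 CPM in Ground replicate 4 against 9.81 CPM (0.797).

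Differences from BDF1 mice that were not the same in replicates 4 to 6 as in replicates 1 to 3 were tested as an interaction in edgeR. In Space pups, Ugt1a9 (-1.54 on the log2 scale, edgeR adjusted p = 0.0231) and Ugt2a3 (-0.79, edgeR adjusted p = 0.00868) passed. In Ground pups the same 2 genes passed, at -1.42 (edgeR adjusted p = 0.0385) and -0.67 (edgeR adjusted p = 0.0253), against the same BDF1 libraries. Passing in Ground pups as well were Gsta2 at -3.08 (edgeR adjusted p = 0.0404), Ugt2b1 at -1.23 (edgeR adjusted p = 0.0316), Gstk1 at -1.04 (edgeR adjusted p = 0.0143) and Gsta3 at -0.93 (edgeR adjusted p = 0.0172). None of these 8 values passed without Space replicate 6 and BDF1 replicate 3, the libraries with sperm transcripts, where Ugt1a9 was at -1.68 and -1.39, Ugt2a3 at -0.74 and -0.63 (Space and Ground), Gsta2 at -2.97, Ugt2b1 at -1.13, Gstk1 at -0.95 and Gsta3 at -0.89. For Gsta2 the value was -1.91 without Ground replicate 2, the library that stood apart above, and the call was lost in 11 of 18 fits with 1 library left out. Over the 8 values without the sperm libraries the edgeR adjusted p was between 0.0545 and 0.116.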

How the results depend on the processing

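Shares of all genes called are not given in this section, so whether all genes moved alike is not shown. Counts of conjugation genes called moved as follows. Scaled by total counts they were 1 and 16 for Space against BDF1 mice in replicates 1 to 3 and 4 to 6, 0 and 26 for Ground, 11 for Space averaged over replicate sets and 10 for the Ground difference between replicate sets, while Gstz1 between the replicate sets turned to -0.010. Without the libraries holding sperm transcripts the counts were 0 for Space and 0 for Ground in replicates 1 to 3 and 0 for both differences between replicate sets. Without the libraries high in Serpina6, Ground had 3, 4 and 5 calls in replicates 1 to 3, 4 to 6 and averaged, and 3 in the difference. DESeq2 gave 5 for Ground in replicates 1 to 3, 5 for the Space difference and 2 for Space against Ground averaged. No filter gave 2 for Ground in replicates 1 to 3, a fit of that replicate set alone 4 for Space in replicates 4 to 6, and group alone 1 for Space and 3 for Ground averaged.

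Same-numbered libraries of different groups were not treated as pairs. With the mean of each group and replicate set removed, 5 of 18 were closest to their own number. Between groups, median correlations were -0.04 for libraries of the same number and 0.01 for others of the replicate set. Resting on means of 3 libraries, this check cannot exclude a pairing. With the replicate number as a block, Space against BDF1 mice had 1 and 5 calls in replicates 1 to 3 and 4 to 6 and 1 in the difference, and the Ground difference had 2.

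Leaving out 1 library at a time gave, for Space against Ground, 0 to 5 calls in replicates 1 to 3, 0 to 0 in replicates 4 to 6, 0 to 9 averaged and 0 to 1 in the difference, each upper value without Ground replicate 2. Space against BDF1 mice had 0 to 6 calls in replicates 1 to 3 (0 without Space replicate 3, BDF1 replicate 2 or BDF1 replicate 3), 5 to 10 in replicates 4 to 6 (5 without Space replicate 4 or BDF1 replicate 5), 4 to 8 averaged (4 without BDF1 replicate 4) and 1 to 3 in the difference. Ground against BDF1 mice had 0 to 4 in replicates 1 to 3 (0 without Ground replicate 1, BDF1 replicate 2 or BDF1 replicate 3, and 4 without Ground replicate 2), 6 to 16 in replicates 4 to 6 (16 without Ground replicate 4 and 6 without BDF1 replicate 6), 8 to 11 averaged and 1 to 10 in the difference (10 without Ground replicate 4). Between the replicate sets 25 to 29 genes passed. The causes of these shifts were not tested. With 3 libraries per group and replicate set, small differences could not be detected, and no value here separates the labels' replicate sets from anything else the replicate numbers stand for.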

Other observations

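The wider detoxification lists also differed between replicates 4 to 6 and 1 to 3 (edgeR, averaged over the groups, beside 38% of all genes called). Among regulators and targets of Nrf2, 7 of 16 tested were higher in replicates 4 to 6 and 1 was lower, with a median log2 change of 0.24. Glutathione synthesis and recycling had 4 higher and 3 lower of 11, the mercapturate pathway 2 higher and 3 lower of 11, and xenobiotic receptors and targets 4 higher and 3 lower of 14. In UDP-glucuronate supply and glucuronide hydrolysis 1 of 8 was lower, and in conjugate export 1 of 7 was lower, with none higher in either.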
